A study of Mus musculus with 6 samples.

Results

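ATP-binding cassette (ABC) transporters are membrane pumps that use ATP to move substrates across membranes, and a subset of them carries drugs out of cells. The transcripts of 9 such genes, Abcb1a, Abcb1b, Abcc1, Abcc3, Abcc4, Abcc5, Abcg1, Abcg2 and Abca1, were followed in C1498 cells, a murine leukemia line, sorted out of bone marrow from mice with and without cytarabine. They were taken by gene symbol from the 23284 genes in the files, which hold 50 genes of the ABC family in all, so 41 other family members were available for comparison. Of the 9 genes, 7 had a mean of at least 1 FPKM (a read count scaled by transcript length and library size) and were tested, while Abca1 and Abcg1 were below that level.

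The cells were 1 GFP-carrying clone of C1498, injected intravenously into female C57BL/6 J mice, so all groups share the same clone and host strain. On day 21 after transfer, GFP+ CD49b+ cells were sorted from 3 mice given cytarabine and from 3 mice that the labels describe both as PBS-treated and as untreated. A mouse yielded a single library, and the libraries are called cytarabine 1 to 3 and control 1 to 3. The methods give cytarabine schedules for the imaging and survival experiments and none stated for the sequenced mice. The mice were separate animals carrying the same clone. The spread between libraries can hold differences between hosts, sorts and library preparations, which cannot be told apart with a single library per mouse.

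Drug efflux is a textbook route to chemotherapy resistance in leukemia. P-glycoprotein, the product of ABCB1 in humans and of the pair Abcb1a and Abcb1b in mice, expels large hydrophobic drugs such as anthracyclines and vinca alkaloids. ABCG2 and ABCC1 have overlapping drug spectra, ABCC4 and ABCC5 carry organic anions that include phosphorylated nucleoside analogs, and ABCA1 and ABCG1 move cholesterol. Cytarabine is a nucleoside analog that is phosphorylated inside the cell and is not a classical substrate of P-glycoprotein.

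The libraries did not divide by treatment alone. Depth, inferred from the steps between low FPKM values, was 11500000 to 18870000 reads per library, at which 3 reads on a transcript of 2000 bases give 0.0883 to 0.145 FPKM. The summed level of 14 colon epithelium markers came to 5224 and 5640 FPKM for cytarabine 2 and 3 and 2532 FPKM for control 1, but to 395.5 FPKM for cytarabine 1 and to 35.0 and 29.2 FPKM for control 2 and 3. None of the 14 markers was at 0 in all libraries. For 8 neutrophil markers the sum came to 198.8 and 188.8 FPKM for cytarabine 2 and 3 and to between 1433 and 2043 FPKM for the other 4 libraries. Retnlg, S100a9, Ltf, Mmp8, Lcn2 and Ngp were each lower in all cytarabine libraries than in any control, while S100a8 and Camp overlapped. The NK cell sum was 8.54 to 18.4 FPKM with cytarabine and 4.18 to 6.93 FPKM in controls. Klrb1c, Gzma, Prf1 and Eomes were higher in all cytarabine libraries than in any control, Eomes at 0.551 FPKM or less, while Klre1, Ncr1 and Tbx21 overlapped. The platelet sum was 4.54 to 7.90 FPKM with cytarabine and 2.40 to 4.11 FPKM in controls. Of its 6 markers, Pf4 was the highest and overlapped between the groups, and the other 5 were under 1 FPKM in all libraries. The colon, smooth muscle, heart, macrophage, erythroid, T cell, B cell, endothelium and liver sums overlapped between the groups. The sum of 6 heart markers ran from 7.21 FPKM in cytarabine 1 to 2422 FPKM in control 1. Of the markers checked for the myeloid label, the pan-leukocyte gene Ptprc was at 283.5 to 385.5 FPKM and Itga2, which encodes CD49b, at 7.79 to 13.3 FPKM. The progenitor genes Kit and Cebpa did not exceed 1.59 and 2.18 FPKM, and the myeloid genes Cd33, Itgam and Csf3r did not exceed 2.12, 4.76 and 3.83 FPKM. Kit and Cebpa were higher in all cytarabine libraries than in any control, and Cd33, Itgam and Csf3r were lower. For comparison, the groups did not overlap for 23.8% of all genes tested. Mpo, the myeloperoxidase gene of immature myeloid cells, was at 71.05 FPKM in cytarabine 1 and at 2.33 to 12.3 FPKM in the other libraries. Cytarabine 1 also had the highest sum of 6 erythroid markers, 107.2 FPKM against 13.8 to 28.2 FPKM.

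Abcb1a and Abcb1b are the neighboring mouse genes for P-glycoprotein, and their sequences are shown because reads could be divided between them. On chromosome 5 of GRCm38 (GENCODE M21), Abcb1a lies from 8660077 to 8748575 and Abcb1b from 8798147 to 8866315, on the same strand and 49571 bases apart. Both have a coding sequence of 3828 bases, and 88.1% of the aligned coding bases were identical. Of all windows of 75 bases, the length of the reads, 10.6% of those in the Abcb1a transcript occurred without change in the Abcb1b transcript, and 26.3% were within 2 mismatches of a window there. The longest run shared in the coding sequence was 338 bases, while the most different stretch of 120 bases held 38 differences. That stretch is printed below for both genes (coding bases 2128 to 2247 of Abcb1a and 2134 to 2253 of Abcb1b, from the GENCODE transcripts), with the differing bases in capitals.
Abcb1a: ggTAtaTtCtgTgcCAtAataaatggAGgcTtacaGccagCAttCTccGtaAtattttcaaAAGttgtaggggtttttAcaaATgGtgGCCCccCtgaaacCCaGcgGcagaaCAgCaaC
Abcb1b: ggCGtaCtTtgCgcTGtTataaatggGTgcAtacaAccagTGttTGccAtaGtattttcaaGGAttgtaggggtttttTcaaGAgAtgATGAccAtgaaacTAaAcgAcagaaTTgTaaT

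The RefSeq promoters of the pair were read next. RefSeq promoters (GRCm38.p6, 250 bases before to 50 bases after a start site) were found for 6 of the 9 genes, as 9 promoters. They were searched on both strands for the CCAAT box (CCAAT), the GC box (GGGCGG), the TATA box (TATAAA), the E-box (CACGTG) and the AP-1 site (TGANTCA), which are present in 37.4%, 35.7%, 13.6%, 7.15% and 7.81% of all 32851 RefSeq promoters of this length. No motif of the 5 contains another. The Abcb1b promoter (chr5:8797897-8798196, plus strand) held 2 CCAAT boxes, in opposite orientations, and 1 GC box, in capitals here. The Abcb1a promoter (chr5:8566841-8567140, plus strand) belongs to a RefSeq start site 92986 bases upstream of the GENCODE start given above, and it matched none of the 5 motifs. The sequence before the GENCODE start of Abcb1a was not searched, so the 2 promoters are not compared, while for Abcb1b both annotations give the same start. A match is a description of the letters and was not tested as a binding site.
Abcb1a promoter: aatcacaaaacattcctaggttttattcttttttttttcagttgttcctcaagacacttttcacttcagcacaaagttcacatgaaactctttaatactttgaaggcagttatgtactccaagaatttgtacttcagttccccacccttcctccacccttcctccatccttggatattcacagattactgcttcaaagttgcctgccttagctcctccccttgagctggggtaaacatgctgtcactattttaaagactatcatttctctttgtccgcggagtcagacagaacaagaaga
Abcb1b promoter: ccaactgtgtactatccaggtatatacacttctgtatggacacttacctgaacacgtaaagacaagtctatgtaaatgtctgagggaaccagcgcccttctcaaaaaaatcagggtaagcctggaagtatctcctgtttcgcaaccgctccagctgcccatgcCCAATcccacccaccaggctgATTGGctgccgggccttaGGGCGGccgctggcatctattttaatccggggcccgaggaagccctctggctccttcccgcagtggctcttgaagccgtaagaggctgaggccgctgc

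None of the 7 tested transporters differed between cytarabine-treated and control mice beyond the spread between libraries, and the 3 values of each group overlapped for all 9 genes. The pumps split by level: Abcb1b, Abcg2, Abcb1a, Abcc1, Abcc5 and Abcc4 were at 10.03 FPKM or more in every library, while Abcc3, Abca1 and Abcg1 stayed at 4.57 FPKM or less. The count of transporters at an unadjusted p under 0.05 from limma was 0 of 7, where 17.4% of all 11703 genes tested met that threshold. With Benjamini-Hochberg adjustment no gene passed (0%). The groups did not overlap for 23.8% of all genes tested. The median log2 fold change of the 7 transporters was 0.033, beside -0.0020 over all genes tested. In this bulk measurement, fewer cells of a type and less RNA per cell cannot be told apart.

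**Figure D1:**
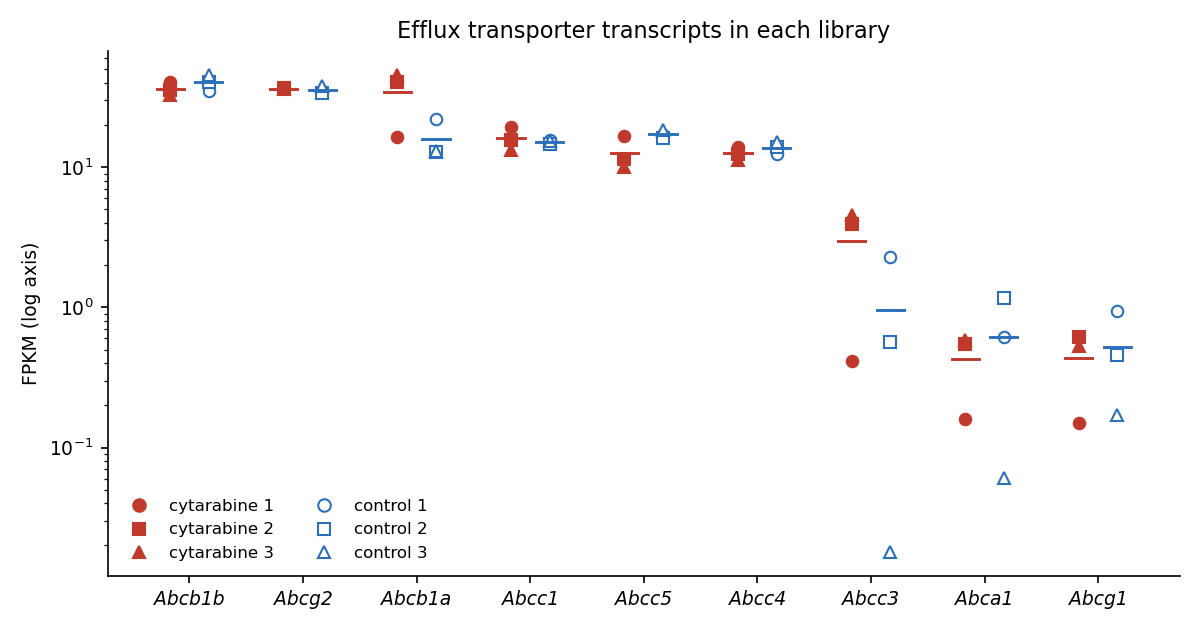
FPKM (log axis) of the 9 transporter genes in each of the 6 libraries, with filled red symbols for cytarabine, open blue symbols for control and short lines for the group means (n = 3). The ranges of the 2 groups overlap for every gene, and Abcc3, Abca1 and Abcg1 lie below the other 6 genes.

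On the FPKM scale, which is per length and so allows genes to be compared, the order of the levels was similar but not the same in the 2 groups. In controls, Abcb1b was at 40.4 ± 5.40 FPKM (SD, n = 3) and Abcg2 at 35.6 ± 2.22 FPKM, and their ranges overlapped. Abcg2 stood apart from the next group, in which Abcc5 (17.2 ± 1.20 FPKM), Abcb1a (16.0 ± 5.26 FPKM), Abcc1 (15.2 ± 0.447 FPKM) and Abcc4 (13.8 ± 1.24 FPKM) each overlapped with its neighbor. With cytarabine, Abcg2 (36.4 ± 0.328 FPKM), Abcb1b (36.1 ± 3.73 FPKM) and Abcb1a (34.2 ± 15.5 FPKM) were the 3 highest, and each gene overlapped with the next in the order down to Abcc4 (12.6 ± 1.34 FPKM). In both groups Abcc4 and Abcc3 did not overlap. Abcb1a, Abcb1b and Abcg2 together made up 64.8% to 74.0% of the summed FPKM of the 9 genes in each library.

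Abcg2, the breast cancer resistance protein gene and a well-known marker of side population cells, was the steadiest of the 9. It lies on chromosome 6 from 58584523 to 58695676. In treated mice it read 36.7, 36.5 and 36.0 FPKM, and in control mice 34.9, 33.8 and 38.1 FPKM. The highest library was 1.13 times the lowest, and the control values enclosed those of the cytarabine group. As a log2 fold change of FPKM + 1, the difference was 0.033 (SE 0.065, limma adjusted p = 0.783), with a 95% interval from -0.13 to 0.19. This interval was the narrowest among the 7 transporters.

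Abcb1b, the other P-glycoprotein gene beside Abcb1a, varied less between libraries. Its FPKM was 40.2, 35.4 and 32.9 in treated mice and 35.0, 40.3 and 45.8 in control mice. Cytarabine 1 and 2 lay within the control range and cytarabine 3 just below it. The 3 colon-rich libraries, cytarabine 2, cytarabine 3 and control 1, were the 3 lowest for Abcb1b, by -0.28 on the log2 scale. The estimated log2 fold change came to -0.15 (SE 0.12, limma adjusted p = 0.507), with a 95% interval from -0.46 to 0.15.

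Abcb1a varied more than its neighbor. Its FPKM was 16.5, 40.4 and 45.7 in cytarabine 1, 2 and 3 and 22.0, 12.8 and 13.1 in control 1, 2 and 3. Cytarabine 2 and 3 were above all controls, cytarabine 1 was below control 1, and the highest library was 3.58 times the lowest. For Abcb1a the log2 fold change was 0.97 (SE 0.42, limma adjusted p = 0.303), with a 95% interval from -0.064 to 2.01. The 3 libraries with higher Abcb1a were those with more colon epithelium transcript, and they did not overlap with the other 3 libraries. On the colon-poor side (cytarabine 1, control 2 and control 3) treated and control libraries differed by 0.33 on the log2 scale, and on the colon-rich side (cytarabine 2, cytarabine 3 and control 1) by 0.93. Once the colon and heart marker scores were entered as covariates, the log2 fold change of Abcb1a was 0.35 (SE 0.48, limma adjusted p = 0.998). Every tested transporter had that adjusted p in this fit, which estimates more terms from the same 6 libraries. The colon markers moved with the difference in Abcb1a, and their part in it was not tested beyond these values.

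The make-up of the P-glycoprotein pair differed between libraries. The sum of Abcb1a and Abcb1b totaled 56.7, 75.8 and 78.6 FPKM in treated mice, against 57.0, 53.1 and 58.8 FPKM in control mice. Abcb1a supplied 29.1%, 53.3% and 58.2% of that sum with cytarabine and 38.7%, 24.0% and 22.2% in controls. Abcb1a therefore exceeded Abcb1b in cytarabine 2 and 3 alone, and the shares of the groups overlapped. The share was higher in all 3 colon-rich libraries than in the 3 colon-poor ones, and the part of the colon markers in it was not tested. Reads from the windows that both genes share could have been assigned to either.

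**Figure D2:**
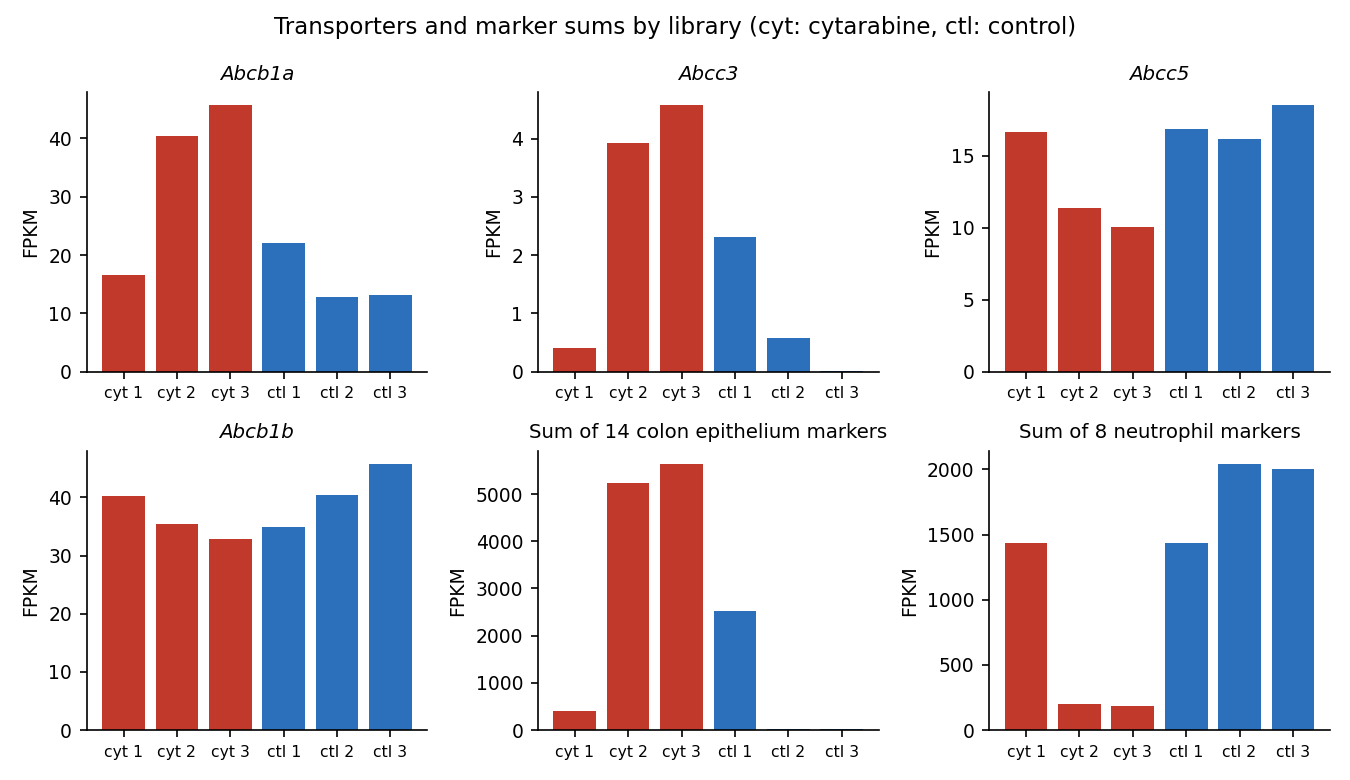
FPKM per library of Abcb1a, Abcc3, Abcc5 and Abcb1b and the summed FPKM of 14 colon epithelium and 8 neutrophil markers, as bars from 0, red for cytarabine (cyt) and blue for control (ctl). Abcb1a and Abcc3 are higher in the 3 libraries with more colon transcript, and Abcc5 is lower in cytarabine 2 and 3, where the neutrophil sum is 198.8 and 188.8 FPKM.

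Among the ABCC genes, Abcc1 encodes MRP1, an exporter of glutathione conjugates and of leukotriene C4. It lies on chromosome 16 from 14361558 to 14475737. It read 19.4, 15.7 and 13.3 FPKM in treated mice, against 15.6, 14.7 and 15.3 FPKM in control mice, so the cytarabine values lay on both sides of the control values. Abcc1 had a log2 fold change of 0.065 (SE 0.14, limma adjusted p = 0.802), with a 95% interval from -0.27 to 0.40.

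Abcc4 encodes MRP4, which exports cyclic nucleotides, prostaglandins and some nucleotide analogs, and lies on chromosome 14 from 118482692 to 118706219. It read 14, 12.4 and 11.3 FPKM in treated mice, against 12.5, 13.8 and 15.0 FPKM in control mice. Cytarabine 2 and 3 were below the 3 controls and cytarabine 1 was among them. As for Abcb1b, the 3 colon-rich libraries were the 3 lowest, by -0.22 on the log2 scale. Its log2 fold change was -0.12 (SE 0.11, limma adjusted p = 0.522), with a 95% interval from -0.39 to 0.14.

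Abcc5, the gene of MRP5, another exporter of cyclic nucleotides and nucleotide analogs, lies on chromosome 16 from 20331303 to 20426394. Levels of 16.6, 11.4 and 10.03 FPKM were found in treated mice, against 16.8, 16.2 and 18.5 FPKM in control mice. Cytarabine 2 and 3 were below all controls, and cytarabine 1 was between control 2 and control 1. Its log2 fold change was -0.44 (SE 0.18, limma adjusted p = 0.294), with a 95% interval from -0.89 to 0.013. The log2 difference was -0.054 on the colon-poor side and -0.61 on the colon-rich side. With the colon and heart scores as covariates, the log2 fold change of Abcc5 was -0.49 (SE 0.35, limma adjusted p = 0.998). The 2 libraries with low Abcc5 were also the 2 with a neutrophil sum of 198.8 and 188.8 FPKM. In cytarabine 1 too, Retnlg, S100a9, Ltf, Mmp8, Lcn2 and Ngp were below all controls. The part of the neutrophil markers in the Abcc5 difference was not tested.

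Abcc3 encodes MRP3, an exporter of glucuronides and bile acids known from the basolateral membrane of gut and liver epithelium, and lies on chromosome 11 from 94343295 to 94392997. It read 0.412, 3.92 and 4.57 FPKM in treated mice, against 2.30, 0.570 and 0.018 FPKM in control mice. At the inferred depth, the value of control 3 corresponds to 1 read and that of cytarabine 2 to 355 reads, assuming 1 transcript of 5005 bases. The 3 libraries with more colon transcript were again the 3 highest. Abcc3 had a log2 fold change of 0.96 (SE 0.69, limma adjusted p = 0.457), with a 95% interval from -0.74 to 2.65. It was 0.16 on the colon-poor side and 0.66 on the colon-rich side. With a pseudocount of 0.1 the log2 fold change was 1.89, and with the colon and heart scores as covariates it was 0.21.

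The cholesterol exporters Abca1 and Abcg1 were the lowest of the 9 by mean FPKM and rested on few reads. Abca1, on chromosome 4 from 53030787 to 53159895, read 0.159, 0.544 and 0.586 FPKM in treated mice, against 0.619, 1.18 and 0.060 FPKM in control mice, which corresponds to between 7 and 146 inferred reads. Abcg1, on chromosome 17 from 31057675 to 31117988, read 0.149, 0.619 and 0.531 FPKM in treated mice, against 0.947, 0.458 and 0.169 FPKM in control mice. The cytarabine values lay within the control range for both genes, except Abcg1 in cytarabine 1, which was just below its lowest control. Control 2 had the highest Abca1, and it also had the highest sum of 9 macrophage markers, 155.1 FPKM against 14.04 to 63.0 FPKM in the other libraries. The part of the macrophage markers in the level of Abca1 was not tested. A fit without the filter on low FPKM gave a log2 fold change of -0.13 for Abca1 and -0.074 for Abcg1 (limma adjusted p = 0.832 and 0.884).

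The profiles of Abcb1a, Abcc3 and Abca1 spanned at least 1 on the log2 scale of FPKM + 1 over the 6 libraries. The genes most like each were found by the root mean square difference of profiles centered on the gene's own mean, over the same 6 libraries. For Abcb1a they were Prdx6 (difference 0.0554), Trpm6 (0.0699) and Mboat1 (0.0767). Those of Abcc3 were Lrig1 (0.0688), Ptprk (0.0752) and Adcy6 (0.0853), and those of Abca1 were Pi16 (0.123), Colec12 (0.125) and Pla1a (0.165). Prdx6 read 132, 307.5 and 370.3 FPKM in treated mice, against 191.9, 109.6 and 111.8 FPKM in control mice, the same order of libraries as for Abcb1a.

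The other 41 ABC family genes gave 2 genes that were lower with cytarabine at an unadjusted p under 0.05 and none that were higher, among 19 tested. Of all genes tested, 9.81% were lower and 7.6% higher at that threshold. Neither of the 2 passed the adjustment. Abcb6, a porphyrin transporter, read 33.5, 30.4 and 28.6 FPKM in treated mice, against 41.7, 45.8 and 46.2 FPKM in control mice. All treated mice were below all control mice for Abcb6, and its log2 fold change was -0.52 (SE 0.082, limma adjusted p = 0.135). On the colon-poor and colon-rich sides, Abcb6 differed by -0.45 and -0.48. Abcb8, a transporter of the mitochondrial inner membrane, read 6.57, 5.53 and 5.75 FPKM in treated mice, against 6.78, 7.53 and 8.10 FPKM in control mice, and its log2 fold change was -0.29 (SE 0.11, limma adjusted p = 0.258). Abcb8 no longer met the unadjusted threshold with the colon and heart covariates (log2 fold change -0.15), the replicate block, other filters or quantile normalization, nor in 4 of 6 fits that left out a library. The replicate block joins libraries by number alone, and the numbers mark no known batch. A call lost with that block therefore says little about a gene, here and below. The difference between these 2 genes and the drug exporters was not tested.

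**Figure D3:**
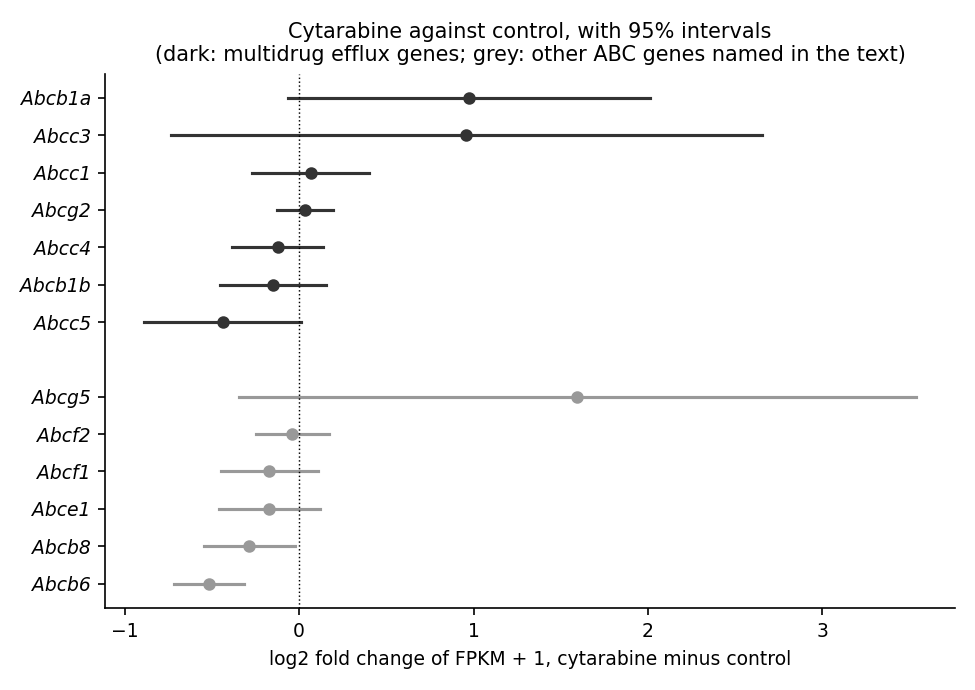
Log2 fold change of FPKM + 1, cytarabine minus control, for ABC family genes, with points for the estimate and lines for the 95% interval from limma, dark for the 7 efflux genes and grey for the other family genes described in the text. All 7 dark intervals include 0, and among the grey ones those of Abcb6 and Abcb8 do not, although the Abcb8 call is lost under several other settings.

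The median log2 fold change of the 19 other ABC genes was -0.14. The most abundant were Abcf1 (102.2 ± 13.5 FPKM with cytarabine and 114.9 ± 9.04 FPKM in controls; SD, n = 3), Abce1 and Abcf2, family members that lack membrane domains and act in translation. Abcf1 had a log2 fold change of -0.17 (SE 0.11, limma adjusted p = 0.425). Abcg5, which pairs with Abcg8 to export sterols in gut and liver, was singled out after its values were seen. It read 0.592, 6.86 and 6.35 FPKM in treated mice and 2.21 and 0.0391 FPKM in control 1 and 2, and was listed at 0 in control 3. Abcg5 thus had the same 3 highest libraries as Abcb1a and Abcc3. A further 22 ABC genes were below the filter.

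Genes that regulate or feed the exporters were counted next. The sterol list holds the liver X receptors, their partner RXR and genes of sterol handling. Of its 18 tested genes, 1 was higher and 3 were lower at an unadjusted p under 0.05. Over all genes tested, 7.6% were higher and 9.81% lower at that threshold. The median log2 fold change of the list was -0.040. Rxrb, a partner of the liver X receptors, read 25.5, 22.0 and 21.3 FPKM in treated mice, against 33.7, 36.1 and 39.9 FPKM in control mice, and its log2 fold change was -0.65 (SE 0.099, limma adjusted p = 0.131). Npc1, which exports cholesterol from lysosomes, and Srebf2, the transcription factor for cholesterol synthesis, were lower by the same measure, with log2 fold changes of -0.32 and -0.37 (limma adjusted p = 0.207 and 0.217). Mylip, a liver X receptor target that degrades the LDL receptor, read 5.39, 9.38 and 6.74 FPKM in treated mice, against 3.61, 4.03 and 4.30 FPKM in control mice, and its log2 fold change was 0.69 (SE 0.19, limma adjusted p = 0.192). Mylip differed by 0.31 on the colon-poor side and 0.96 on the colon-rich side, and with the colon and heart covariates its log2 fold change was 0.23 and no longer met the unadjusted threshold. Npc1 and Srebf2 lost the threshold with the covariates (log2 fold changes of -0.21 and -0.17), with the replicate block and in 4 of 6 fits that left out a library, while Rxrb kept it in all of these. The groups did not overlap for these 4 genes, and for 5 of the 18 in all, where they did not overlap for 23.8% of all genes. None of the 4 passed the adjustment.

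**Figure D4:**
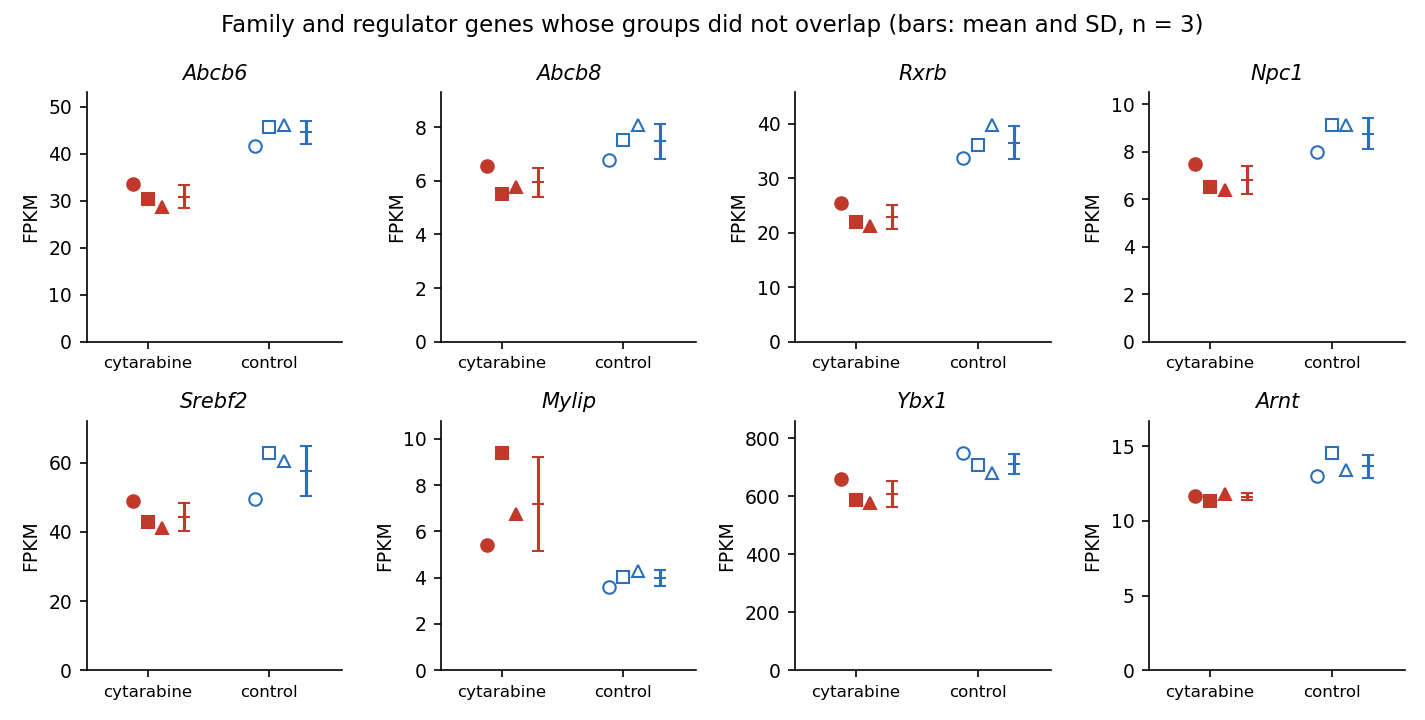
FPKM in each library, on axes from 0, of 2 other ABC genes and 6 genes of the sterol and transcription factor lists whose 2 groups did not overlap. Filled red symbols are for cytarabine, open blue symbols for control and bars for mean and SD (n = 3). Mylip was higher with cytarabine and the other 7 genes were lower.

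Of 15 tested transcription factors of drug transporter genes and their partners, 2 were lower at an unadjusted p under 0.05 and none were higher, where 9.81% of all genes were lower. Ybx1, the Y-box protein that binds CCAAT boxes, read 658.3, 585.9 and 577.9 FPKM in treated mice, against 749.1, 707.2 and 679.7 FPKM in control mice, and its log2 fold change was -0.23 (SE 0.075, limma adjusted p = 0.223). Arnt, the partner of the aryl hydrocarbon receptor, had a log2 fold change of -0.21 (SE 0.071, limma adjusted p = 0.228). With the covariates neither met the threshold (log2 fold changes of -0.22 for Ybx1 and -0.056 for Arnt). It was also lost in 4 of 6 fits that left out a library for Ybx1, and in 3 of 6 and with the replicate block for Arnt. The median over this list was -0.019.

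Glutathione conjugation supplies substrates for the ABCC exporters. Of 19 tested genes of this list, 4 were higher and none lower at an unadjusted p under 0.05, where 7.6% of all genes were higher, and the median log2 fold change was 1.14. The groups did not overlap for 2 of the 19, where they did not overlap for 23.8% of all genes. Gstm1 had the largest change of the 4, with 7.77, 35.5 and 33.0 FPKM in treated mice against 12.04, 2.59 and 0.955 FPKM in control mice, and its log2 fold change was 2.30 (SE 0.87, limma adjusted p = 0.266). Its 3 highest libraries were those with more colon transcript. Gstp1, at 75.5, 70.9 and 77.7 FPKM in treated mice against 66.4, 69.3 and 65.0 FPKM in control mice, had a log2 fold change of 0.16 (SE 0.061, limma adjusted p = 0.277) and differed by 0.17 and 0.16 on the colon-poor and colon-rich sides. The other 2 were Gstp2 and Gstt2, with log2 fold changes of 1.05 and 0.45 (limma adjusted p = 0.266 and 0.284). For Gstp2, as for Gstm1, the colon-rich libraries did not overlap with the others. With the covariates, Gstm1, Gstp2 and Gstt2 no longer met the threshold, with log2 fold changes of 0.95, 0.26 and 0.51. All 4 genes lost it with the replicate block and in 4 or 5 of 6 fits that left out a library. Gstp1 and Gstt2 also lost it under some other filters, scalings or eBayes settings, and Gstm1 with robust eBayes. Gstp1 and Gstp2 are close copies between which reads could have been divided. None of the 3 leukotriene synthesis genes and none of the 9 genes for membrane partners and other efflux proteins that were tested met the threshold, and the medians of these lists were 0.0090 and -0.12.

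The calls for the transporters depended most on cytarabine 1. Without that library, Abcb1a had a log2 fold change of 1.42, Abcc3 of 1.59 and Abcc5 of -0.64 (limma adjusted p = 0.0589, 0.115 and 0.054), and these 3 of the 7 genes were at an unadjusted p under 0.05. In the same fit 34.8% of all genes met that threshold. The groups then did not overlap for 4 of the 9 genes, with Abcb1a and Abcc3 higher and Abcc4 and Abcc5 lower, where they did not overlap for 55.8% of all genes. Without control 1, Abcb1a alone met the threshold, with a log2 fold change of 1.22 (limma adjusted p = 0.273), where 17.9% of all genes met it. Both cytarabine libraries left without cytarabine 1 had much colon transcript and low neutrophil markers, and cytarabine 1 was the library with the highest Mpo and erythroid markers. The part of these markers was not tested.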

How the data were processed

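The authors sorted C1498 cells on day 21, purified total RNA and made stranded mRNA libraries. According to the paper and the submitters' processing notes, their single-end reads of 75 bases were mapped to mm10 with TopHat 2.0.13, Bowtie2 2.2.3 and SAMtools 0.1.19, and the deposited FPKM, 1 per gene and library, came from Cufflinks 2.2.1. Its annotation and options are not given in the sources used here. FPKM are not counts, so no count test was run.

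Groups and replicate numbers follow the source names in the labels. On log2(FPKM + 1), the 11703 genes averaging 1 FPKM or more entered a limma fit (version 3.58.1, R 4.3.3) with group as its only term, a variance trend and two-sided tests, adjusted by Benjamini-Hochberg over all genes tested. Fold changes on this scale are understated for genes of low FPKM. The 9 genes and all lists were chosen with earlier results of these data known. Genes named from the other lists were at most 4 per direction with the smallest p among those at an unadjusted p under 0.05, and the 3 most abundant other ABC genes.

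Read totals were inferred from low FPKM of genes with 1 transcript, assuming fragments of 200 bases, and 71.7% to 75.5% of the values used came within 0.1 of a whole read. Limits given from them cover counting error only. The fit was also run on simulated data with independent noise for each gene. Of 100 genes changed by 1 and 100 changed by 2 on the log2 scale, 66 and 79 were recovered at an adjusted p under 0.05, with 9 false calls. The simulation held no colon or heart variation shared between genes, so it cannot show how the fit performs on these libraries. Coding sequences were aligned with Biopython 1.88 and plots drawn with matplotlib 3.10.9 in Python 3.11.15. Alternatives were another pseudocount, other filters and scalings, other settings of eBayes, the replicate number as a block, colon and heart scores as covariates, each side of the colon division, and leaving out each library. Values of some other family genes are not reported here. Same-numbered libraries are different mice.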

Additional observations from a re-analysis of the deposited data

How the results depend on the processing

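Of the 83 fold changes of the 7 tested transporters under alternatives that left out no single library, 76 kept their direction and side of the threshold (or, within a side of the colon division, stayed within the spread), 2 passed the threshold, 2 reversed, and 3 moved by more than the spread. Abcc5 passed an unadjusted p under 0.05 with quantile normalization (log2 fold change -0.49) and with robust eBayes (-0.44). This made 1 of the 7 transporters past the threshold in each in place of 0, where 1953 and 2064 of all 11703 genes met it. Quantile normalization also gave 1 of the 9 transporters without overlap, Abcg1, where 2421 of the 11703 genes did not overlap. Covariates for colon and heart transcript reversed the log2 fold change of Abcc1 (-0.069), Abcg2 (-0.049), Abcf1 (0.030), Abce1 (0.023) and Abcf2 (0.036). The 3 that moved were Abcb1a (0.33), Abcc1 (0.35) and Abcc5 (-0.054) among libraries with little colon transcript. The cause was not tested.

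With an adjusted p under 0.05, the 0 genes called by limma (2038 at an unadjusted p under 0.05) became 1 with a pseudocount of 0.1, 2 without the trend, 1 with robust eBayes and 0 to 5 when a library was left out. The 2038 genes became 994 with the replicate block, 567 with the covariates and 1179 to 4075 when a library was left out. The 2781 genes whose groups did not overlap ranged from 3385 to 6533 in the latter fits, which compare fewer libraries.

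Transporters at an unadjusted p under 0.05 numbered 0 to 3 when one library was left out: 3 without cytarabine 1 and 1, Abcb1a, without control 1 (log2 fold change 1.22). Transporters without overlap numbered 0 to 4. Over the same fits, 10.1% to 34.8% of all genes met that threshold, and the groups did not overlap for 28.9% to 55.8% of all genes. The log2 fold change of Abcc1 ranged from -0.069 to 0.19, that of Abcg2 from -0.0013 to 0.082 and that of Abcf2 from -0.10 to 0.012, so these turned sign. Of the 12 other named genes at an unadjusted p under 0.05, 9 lost that call in at least 1 of those fits, all but Abcb6, Rxrb and Mylip. With the covariates 9 lost it, all but Abcb6, Rxrb and Gstp1, and with the replicate block 8 did. The 12 genes lost the call 27 times with no single library left out, and 37 times in 6 fits each with a library left out.

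Chosen after seeing the data, fits on each colon side had 1 library in a group, assumed to vary like the others. Most of the 11703 genes did not overlap, so counts say little about transporters in these fits. Those with little colon transcript gave 2 transporters at an unadjusted p under 0.05 and 4 without overlap, with 0 genes at an adjusted p under 0.05, 1241 at an unadjusted p under 0.05 and 8620 without overlap. Those with much of it gave 3, 7, 12, 2719 and 9595 by the same measures.

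Between groups, libraries with the same number had deviations that correlated at -0.709, -0.247 and -0.594, and the labels do not say that a number marks a shared batch, so the numbers were not used to pair libraries. These numbers and the block follow the source names. The titles number libraries differently and share a single number between groups, which allows no paired fit. With the block, 0 of the 7 transporters and 994 of all genes were at an unadjusted p under 0.05. Because same-numbered deviations correlated negatively, the block tends to widen the error, so calls lost with it cannot be held against a gene. The depth limits Abca1, Abcg1 and Abcc3, whose lowest libraries hold 7, 11 and 1 inferred reads.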
